A study of Mus musculus with 10 samples.

Results

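The hepatic mRNA of 10 acyl-CoA thioesterase genes was examined in mice given TM5614 and in mice on standard chow. The genes Acot1, Acot2, Acot3, Acot4, Acot7, Acot8, Acot9, Acot11, Acot12 and Acot13 were taken by symbol, and they are 10 of the 24421 genes listed in the count table. TM5614 is a small molecule taken by mouth that inhibits PAI-1, the plasma protein that blocks plasminogen activators. All mice were male C57BL/6 animals (the substrain J in the study's methods), wild type, 21 weeks old and fed freely. The Chow group (n = 5) ate standard chow alone. The TM5614 group (n = 5) ate chow with TM5614 mixed in, at 20 mg/kg/day for 10 days. Each library came from the liver of 1 mouse, and in such bulk tissue fewer cells of a type and less RNA per cell cannot be told apart. No vehicle is described for the Chow group in the sources used here.

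Acyl-CoA thioesterases cut the thioester bond of acyl-CoA and release a free fatty acid and coenzyme A (CoA). By setting the ratio of acyl-CoA to free acid and CoA in a compartment, they act beside the acyl-CoA synthetases, which make the same bond, and the enzymes that oxidize acyl-CoA. Type I enzymes are closely related to each other and lie in a gene cluster in the mouse, whereas type II enzymes share a hotdog fold and are scattered over the genome. In the liver the type I genes are known as targets of PPAR-alpha, the fatty acid-activated nuclear receptor of the fasted state. Of the genes measured here, Acot1 encodes a cytosolic, Acot2 a mitochondrial, and Acot3 and Acot4 peroxisomal type I enzymes. Acot7, Acot11 and Acot12 encode cytosolic, Acot8 a peroxisomal, and Acot9 and Acot13 mitochondrial type II enzymes.

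The total count per library ranged from 6398335 to 10874955, and 11092 genes had enough counts to be tested, among them all 10 thioesterase genes. Hepatocyte markers summed to 116128 to 132903 CPM (counts scaled to library size) in Chow and 104092 to 121544 CPM in TM5614. Most of that sum was Alb, at a mean of 87718 CPM in Chow and 79102 CPM in TM5614, so it mainly follows this gene. Kupffer cell markers summed to 74.2 to 237 CPM in Chow and 76.9 to 162 CPM in TM5614. TM5614 replicate 2 stood apart with 4122 CPM of 12 skeletal muscle genes, where TM5614 replicate 3 had 68.1 CPM, the other TM5614 libraries at most 6.17 CPM and the Chow libraries 0.644 to 1.45 CPM. Chow replicate 2 stood apart in another way, since a trend on GC content and gene length accounted for 50.6% of the variance of its deviations over genes, against 0.738% to 13.1% in the other libraries. Values without 1 or both of these libraries are given beside the results they change most.

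The type I genes were examined at the sequence level before their counts were read, because reads of 75 bases must be assigned among close relatives. Acot2, Acot1, Acot4 and Acot3 follow each other in that order on the plus strand of chromosome 12 (GRCm38). Acot2 spans 83987861 to 83993873, Acot1 84009490 to 84018371, Acot4 84038379 to 84048601 and Acot3 84052144 to 84060402. Acot5 (84069325 to 84076020) and Acot6 (84100654 to 84111349) come next, but they held at most 1 and 11 counts in any library and were not tested. The coding sequences of Acot1 and Acot2 were identical at 95.3% of 1236 aligned bases, whereas Acot1 shared 83.9% with Acot3 and 76.6% with Acot4. A matching coding stretch of 75 bases, the length of a read, is shown for each gene to display how far such a read can tell them apart. Capitals mark the bases that differ from Acot1, of which there were 4 in Acot2, 7 in Acot3 and 23 in Acot4.
Acot1: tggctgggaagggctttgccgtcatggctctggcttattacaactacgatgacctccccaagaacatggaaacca
Acot2: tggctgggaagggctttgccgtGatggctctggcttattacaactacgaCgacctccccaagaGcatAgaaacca
Acot3: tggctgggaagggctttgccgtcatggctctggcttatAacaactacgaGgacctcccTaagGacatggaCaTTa
Acot4: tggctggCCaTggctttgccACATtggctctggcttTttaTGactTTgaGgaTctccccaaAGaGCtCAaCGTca
Stretches with no difference also existed. Of the 2198 windows of 75 bases in the Acot1 transcript used, of 2272 bases, 434 also occurred in Acot2, and 26.4% occurred in some other gene. This share was 21.2% for Acot2, 18.7% for Acot3 and 10.7% for Acot4. Of the 627 shared windows of Acot3, 355 also lay in Gm49366 and 129 in Acot1. Of the 653 shared windows of Acot4, 614 also lay in 4732463B04Rik and 71 in Acot3. The sources used here do not say how reads with several matches were counted. The levels of these 4 genes are therefore uncertain to the extent of the shared windows, and the part of such reads in the differences was not tested.

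TM5614 livers held more Acot1 and Acot2 mRNA and less Acot3 mRNA than Chow livers. Acot1 was 4.12-fold and Acot2 2.46-fold higher, whereas Acot3 was lower by 49.9%. These 3 of the 10 genes passed the threshold, an adjusted p under 0.05 in edgeR's quasi-likelihood test over all genes. For comparison, 4.50% of all tested genes did, 1.73% higher and 2.77% lower in TM5614. The median log2 fold change of the 10 genes was 0.0054, beside 0.013 for all tested genes. At an unadjusted p under 0.05 these counts were 5 of the 10 and 20.4% of all tested genes. DESeq2 and limma-voom called the same 3, where they called 8.08% and 12.5% of all genes. Acot1 and Acot2 showed no overlap in CPM between Chow and TM5614 libraries, as did 8.93% of tested genes.

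**Figure D1:**
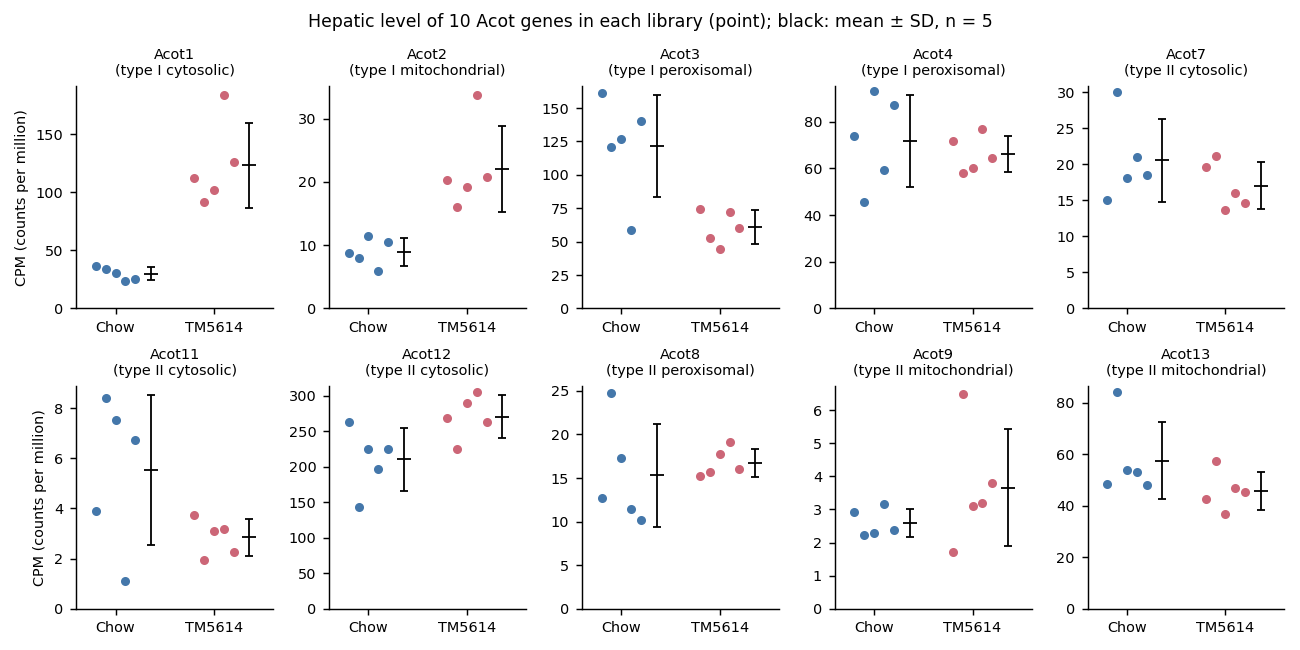
Level of each of the 10 Acot genes in CPM (y axis, linear, from 0, a separate scale per gene) in the Chow and TM5614 groups (x axis). Each point is 1 library and the black mark is the mean ± SD (n = 5). The lowest TM5614 library of Acot1, at 91.4 CPM, lies above the highest Chow library, at 36.3 CPM, whereas for Acot3 Chow replicate 4, at 58.5 CPM, lies among the TM5614 libraries.

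Acot1, the cytosolic type I enzyme, showed the largest change among the 10 genes. In Chow replicates 1 to 5 it had 36.3, 34.1, 30.5, 23.3 and 25.2 CPM, from 147 to 354 counts. In TM5614 replicates 1 to 5 it had 113, 91.4, 102, 184 and 126 CPM, from 704 to 1609 counts. Every TM5614 library was thus above every Chow library, and TM5614 replicate 4 was the highest. The means were 29.9 ± 5.58 CPM (SD, n = 5) in Chow and 123 ± 36.3 CPM (SD, n = 5) in TM5614. On the log2 scale this was a difference of 2.04 (SE 0.20, 95% interval 1.61 to 2.48, edgeR adjusted p = 0.00034), or a 312% increase, and Acot1 ranked 7 by p among all tested genes. Without TM5614 replicate 4 it was 1.85 (edgeR adjusted p = 0.000819).

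Acot2, the mitochondrial type I enzyme, had 8.73, 7.91, 11.4, 5.86 and 10.6 CPM in Chow replicates 1 to 5. It had 20.2, 16.1, 19.3, 33.8 and 20.8 CPM in TM5614 replicates 1 to 5. The groups were again separate, with TM5614 replicate 4 the highest as for Acot1. Means were 8.89 ± 2.19 and 22.1 ± 6.83 CPM (SD, n = 5 each), and the increase was 1.30 on the log2 scale (SE 0.22, 95% interval 0.81 to 1.79, edgeR adjusted p = 0.00652). Counts ran from 37 to 115 in Chow and from 124 to 296 in TM5614, so counting error weighs more here than for Acot1. Acot2 also shared 434 windows of a read's length with Acot1, and the part of such reads in this increase was not tested. Without TM5614 replicate 4 the log2 fold change was 1.09 (edgeR adjusted p = 0.0135).

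Acot3, a peroxisomal type I enzyme, moved the other way. Chow replicates 1 to 5 had 161, 121, 127, 58.5 and 141 CPM. TM5614 replicates 1 to 5 had 74.8, 53.1, 44.6, 71.9 and 60.5 CPM. In 4 of the 5 Chow libraries Acot3 was above every TM5614 library, and Chow replicate 4 was the exception. Means were 122 ± 38.5 and 61.0 ± 12.7 CPM (SD, n = 5 each), with a log2 fold change of -0.998 (SE 0.24, 95% interval -1.51 to -0.48, edgeR adjusted p = 0.0349). Without Chow replicate 4 the log2 fold change was -1.18 (edgeR adjusted p = 0.00357). The call did not hold without any 1 of Chow replicates 1, 3 and 5 or of the TM5614 libraries, where edgeR adjusted p was between 0.0515 and 0.107, though the log2 fold change stayed between -1.08 and -0.89.

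Acot4, the other peroxisomal type I gene measured, had 74.0, 45.4, 93.0, 59.1 and 86.9 CPM in Chow replicates 1 to 5. TM5614 replicates 1 to 5 had 71.7, 57.9, 60.3, 76.8 and 64.3 CPM. All TM5614 values fell inside the range of the Chow values. Acot4 was not called (log2 fold change -0.12, SE 0.18, 95% interval -0.51 to 0.28, edgeR adjusted p = 0.738). Its interval lay below those of Acot1 and Acot2 but overlapped at its edge with that of Acot3, -1.51 to -0.48. The small value hung on single libraries, at -0.25 without Chow replicate 2, -0.0043 without Chow replicate 3 and -0.07 without TM5614 replicate 2, with edgeR adjusted p between 0.263 and 0.991 over all libraries left out in turn.

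**Figure D2:**
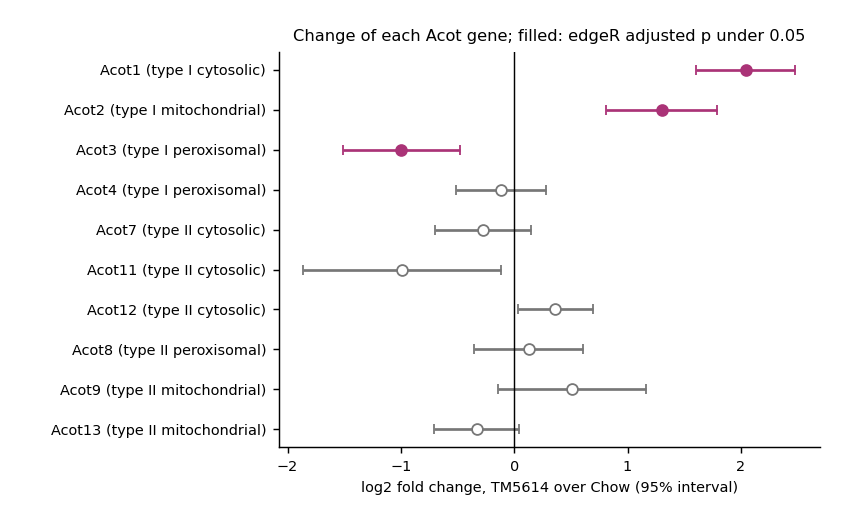
Log2 fold change of TM5614 over Chow (x axis) for each of the 10 Acot genes (y axis), from edgeR over 5 libraries a group. Points are estimates, bars are 95% intervals, and filled points have an adjusted p under 0.05. Acot1 at 2.04, Acot2 at 1.30 and Acot3 at -0.998 are filled, and the other 7 are open.

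Whether the 4 type I genes differed from each other in their response was tested on ratios within each library. The ratios were taken from log2 CPM with a prior count of 2, so they differ slightly from ratios of the CPM given above. Apart from that prior count, they do not depend on how the library was scaled. The ratio of Acot1 to Acot3 was 0.226, 0.283, 0.241, 0.401 and 0.181 in Chow replicates 1 to 5. It was 1.5, 1.72, 2.28, 2.55 and 2.08 in TM5614 replicates 1 to 5. Per gene length, as a ratio of FPKM (fragments scaled by gene length and library), it was 0.298 to 0.663 in Chow and 2.5 to 4.26 in TM5614. Acot3 thus stood above Acot1 in every Chow liver, and Acot1 above Acot3 in every TM5614 liver. The mean ratio rose 7.75-fold, a difference of 2.95 on the log2 scale (exact two-sided permutation test, p = 0.00794, adjusted over 6 gene pairs 0.00952). That p is the smallest the design can give.

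The same p was reached by the ratio of Acot1 to Acot4, which differed by 2.09 on the log2 scale, of Acot2 to Acot3, by 2.22, and of Acot2 to Acot4, by 1.35 (exact permutation p = 0.00794, adjusted 0.00952 for each). The ratio of Acot1 to Acot2, the closest relatives, also separated the groups. It was 4.07, 4.22, 2.65, 3.86 and 2.35 in Chow replicates 1 to 5. The TM5614 ratios were 5.51, 5.61, 5.25, 5.41 and 6.00. Acot1 as counted therefore rose more than Acot2, by 0.73 on the log2 scale or 1.66-fold (exact permutation p = 0.00794, adjusted 0.00952). The part of reads shared by these 2 genes in their ratio was not tested. The ratio was also less spread among TM5614 libraries, with an SD of 0.072 on the log2 scale against 0.39 in Chow, although the difference in spread was not tested.

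The peroxisomal genes Acot3 and Acot4 differed from each other as well. Their ratio was 2.17, 2.66, 1.36, 0.989 and 1.62 in Chow replicates 1 to 5. The TM5614 ratios were 1.04, 0.917, 0.741, 0.936 and 0.941. Only Chow replicate 4 lay within the TM5614 range. The difference was -0.87 on the log2 scale (exact permutation p = 0.0159, adjusted 0.0159). It was -0.70 with Chow replicate 2 and TM5614 replicate 2 left out together (exact permutation p = 0.0571, adjusted 0.0571).

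**Figure D3:**
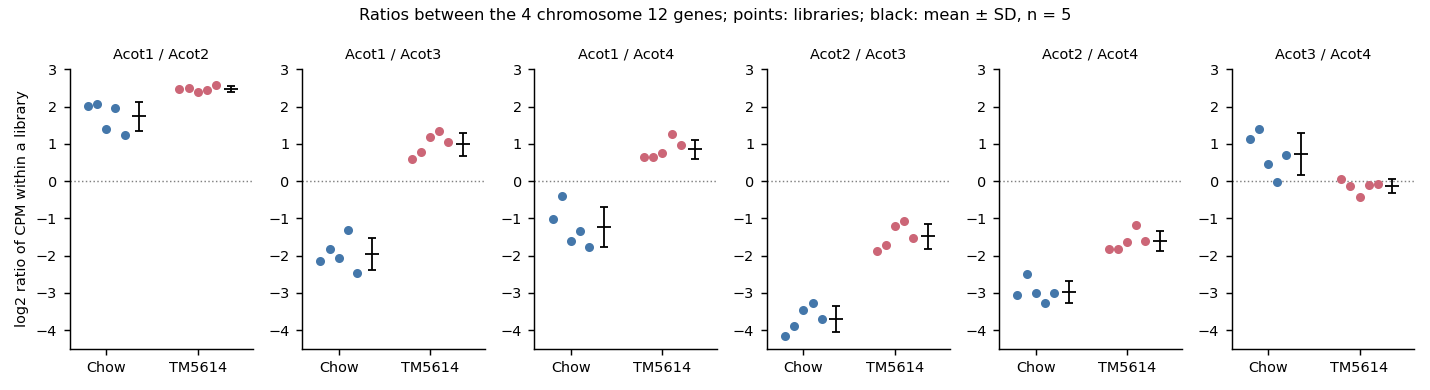
Log2 ratio of CPM, with a prior count of 2, between 2 type I genes within a library (y axis). The x axis gives the Chow and TM5614 groups, with a panel for each of the 6 gene pairs. Points are libraries, black marks are mean ± SD (n = 5) and the dotted line is a ratio of 1. Acot1 over Acot3 goes from a mean of -1.96 in Chow to 0.99 in TM5614 and crosses the dotted line.

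Promoters were inspected because Acot1 and Acot2 rose while their neighbours Acot3 and Acot4 did not. The 250 bases before the RefSeq start of each type I gene (GRCm38.p6, plus strand) are given in the order of their places on the chromosome. For Acot3 the outermost of 2 listed starts was used. Capitals mark matches to the motifs searched.
Acot2 chr12:83987611-83987860: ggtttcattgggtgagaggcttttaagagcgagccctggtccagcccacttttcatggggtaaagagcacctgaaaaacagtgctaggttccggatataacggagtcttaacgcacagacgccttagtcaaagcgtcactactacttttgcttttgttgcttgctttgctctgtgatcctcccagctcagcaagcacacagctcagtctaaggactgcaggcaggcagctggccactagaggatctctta
Acot1 chr12:84009252-84009501: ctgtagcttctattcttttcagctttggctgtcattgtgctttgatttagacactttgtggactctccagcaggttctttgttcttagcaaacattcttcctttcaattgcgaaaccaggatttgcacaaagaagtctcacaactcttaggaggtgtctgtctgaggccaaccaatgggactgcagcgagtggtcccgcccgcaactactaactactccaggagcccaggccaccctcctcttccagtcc
Acot4 chr12:84038129-84038378: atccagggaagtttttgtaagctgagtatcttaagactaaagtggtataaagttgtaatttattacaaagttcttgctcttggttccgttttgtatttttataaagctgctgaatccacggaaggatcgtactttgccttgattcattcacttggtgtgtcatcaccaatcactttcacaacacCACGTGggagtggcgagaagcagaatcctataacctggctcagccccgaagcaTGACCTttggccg
Acot3 chr12:84051894-84052143: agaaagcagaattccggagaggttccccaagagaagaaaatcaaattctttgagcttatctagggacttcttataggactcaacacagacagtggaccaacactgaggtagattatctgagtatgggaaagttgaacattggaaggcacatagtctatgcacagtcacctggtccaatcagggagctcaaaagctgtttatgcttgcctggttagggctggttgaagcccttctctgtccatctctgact
The motifs searched on both strands were AGGTCANAGGTCA, a direct repeat of the kind bound by PPAR-alpha with its partner RXR, its single unit AGGTCA (read TGACCT on the other strand), the E-box CACGTG and the D-box TTATGTAA. Any AGGTCANAGGTCA also counts as AGGTCA. None of these letters occurred in the windows of Acot1, Acot2 and Acot3. The Acot4 window held 1 CACGTG and 1 AGGTCA. Among 32851 RefSeq promoter windows of the same length, 0.0335% held AGGTCANAGGTCA, 14.0% held AGGTCA, 6.02% held CACGTG and 0.819% held TTATGTAA. A match is a description of the letters, and a window without a match says nothing about binding elsewhere.

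None of the 6 type II genes passed the threshold in edgeR. Of these, 2, Acot11 and Acot12, had an unadjusted p under 0.05, as did 20.4% of all tested genes. DESeq2 and limma-voom called none of the 6 type II genes either. Acot12, a cytosolic enzyme that hydrolyses acetyl-CoA and is abundant in liver, had 262, 143, 225, 197 and 225 CPM in Chow replicates 1 to 5. TM5614 replicates 1 to 5 had 269, 224, 290, 306 and 264 CPM. The groups overlapped, with Chow replicate 2 the lowest library. Its change was 0.36 on the log2 scale (SE 0.15, 95% interval 0.03 to 0.70, edgeR adjusted p = 0.21), and it was 0.25 without Chow replicate 2 (edgeR adjusted p = 0.186).

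Acot13, a small enzyme of long-chain acyl-CoA hydrolysis, had 48.4, 84.1, 54.0, 53.1 and 48.1 CPM in Chow replicates 1 to 5. TM5614 replicates 1 to 5 had 42.8, 57.2, 36.7, 46.8 and 45.3 CPM. Chow replicate 2 lay far above the other libraries, and the remaining values overlapped. The difference, -0.33 on the log2 scale (SE 0.17, edgeR adjusted p = 0.306), was -0.16 without Chow replicate 2 (edgeR adjusted p = 0.412).

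Acot7, a cytosolic enzyme best known from brain, had 15.0, 30.1, 18.1, 21.1 and 18.5 CPM in Chow replicates 1 to 5 and a mean of 20.6 ± 5.75 CPM (SD, n = 5). In TM5614 it ranged from 13.6 to 21.2 CPM, with a mean of 17.0 ± 3.24 CPM (SD, n = 5). Acot8, the peroxisomal type II enzyme, had 12.7, 24.8, 17.3, 11.4 and 10.2 CPM in Chow replicates 1 to 5, with a TM5614 range of 15.2 to 19.1 CPM. Chow replicate 2 was the highest Chow library for both genes. Their log2 fold changes were -0.28 for Acot7 (SE 0.19, edgeR adjusted p = 0.438) and 0.13 for Acot8 (SE 0.22, edgeR adjusted p = 0.765). Without Chow replicate 2 these values were -0.10 and 0.37 (edgeR adjusted p = 0.722 and 0.162), and Acot8 was at 0.0081 without Chow replicate 5 (edgeR adjusted p = 0.984). For Acot8, 15.8% of windows of a read's length also lay in transcripts of Snx21.

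Acot11 and Acot9 were the genes with the fewest counts. Acot11, whose product carries a lipid-binding START domain, had 3.88, 8.39, 7.52, 1.11 and 6.72 CPM in Chow replicates 1 to 5, from 7 to 87 counts. In TM5614 replicates 1 to 5 it had 3.73, 1.95, 3.10, 3.2 and 2.26 CPM, from 15 to 28 counts. Chow replicates 1, 2, 3 and 5 were above all TM5614 libraries, and Chow replicate 4 was below them. Acot11 was not called (log2 fold change -0.99, SE 0.40, 95% interval -1.86 to -0.11, edgeR adjusted p = 0.195). Without Chow replicate 4, the shallowest library, it was -1.23 and passed (edgeR adjusted p = 0.0314). Of the Acot11 windows, 23.8% also lay in transcripts of Fam151a.

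Acot9, a mitochondrial enzyme, had 20 to 26 counts in Chow libraries and 12 to 50 in TM5614 libraries. Its means were 2.60 ± 0.419 CPM (SD, n = 5) in Chow and 3.66 ± 1.75 CPM (SD, n = 5) in TM5614. The highest value, 6.49 CPM, was in TM5614 replicate 2, the library with the muscle transcripts. The estimate was 0.51 on the log2 scale (SE 0.30, edgeR adjusted p = 0.36), and it was 0.21 without that library (edgeR adjusted p = 0.654). The part of the muscle transcripts in the Acot9 level was not tested.

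Levels of the 10 genes were then compared per gene length, as FPKM. In Chow livers Acot13 stood highest, with 82.9 ± 21.8 FPKM (SD, n = 5), before Acot12, with 68.2 ± 14.4 FPKM (SD, n = 5). Then came Acot3 (46.4 FPKM), Acot4 (30.5 FPKM), Acot1 (19.0 FPKM), Acot8 (13.1 FPKM), Acot7 (10.92 FPKM), Acot2 (4.00 FPKM), Acot9 (1.66 FPKM) and Acot11 (0.963 FPKM). Of the 9 steps between neighbours in this order, those from Acot7 to Acot2 and from Acot2 to Acot9 were free of overlap between libraries. At the other steps the ranges overlapped.

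In TM5614 livers Acot12 stood highest, with 87.5 ± 10.5 FPKM (SD, n = 5), and Acot1 was next, with 78.1 ± 23.4 FPKM (SD, n = 5), up from place 5. They were followed by Acot13 (65.7 FPKM), Acot4 (28.1 FPKM), Acot3 (23.2 FPKM), Acot8 (14.4 FPKM), Acot2 (9.90 FPKM), Acot7 (9.02 FPKM), Acot9 (2.32 FPKM) and Acot11 (0.496 FPKM). The ranges of Acot12, Acot1 and Acot13 overlapped from one to the next. Neighbours without overlap were Acot13 and Acot4, Acot3 and Acot8, Acot7 and Acot9, and Acot9 and Acot11.

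The summed FPKM of the 10 genes was 296.9, 298.6, 291.0, 227.2 and 273.9 in Chow replicates 1 to 5. In TM5614 replicates 1 to 5 it was 313.5, 289.2, 287.6, 387.4 and 315.4. The groups overlapped, with means of 278 ± 29.8 and 319 ± 40.6 FPKM (SD, n = 5 each). Acot1 made up 6.80% ± 0.748 (SD, n = 5) of the sum in Chow and 24.1% ± 3.97 (SD, n = 5) in TM5614. Acot3 made up 16.4% ± 4.28 in Chow and 7.26% ± 1.16 in TM5614 (SD, n = 5 each). By compartment, the cytosolic genes held 35.9% ± 4.39 in Chow and 54.7% ± 3.99 in TM5614, and the peroxisomal genes 32.2% ± 4.87 and 20.6% ± 1.34 (SD, n = 5 each). Libraries of the groups did not overlap in any of these 4 shares. The cytosolic genes other than Acot1 together held 29.1% ± 4.53 in Chow and 30.6% ± 2.93 in TM5614 (SD, n = 5 each), and these shares overlapped. Among the peroxisomal genes other than Acot3, the shares of Acot4 and of Acot8 each overlapped. The cytosolic and peroxisomal differences therefore mostly restate those of Acot1 and Acot3. The mitochondrial share was 31.98% ± 6.87 and 24.7% ± 4.16 (SD, n = 5 each) and did overlap. Shares are bound to each other by their sum and describe transcripts, not enzyme activity, and they were not tested.

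**Figure D4:**
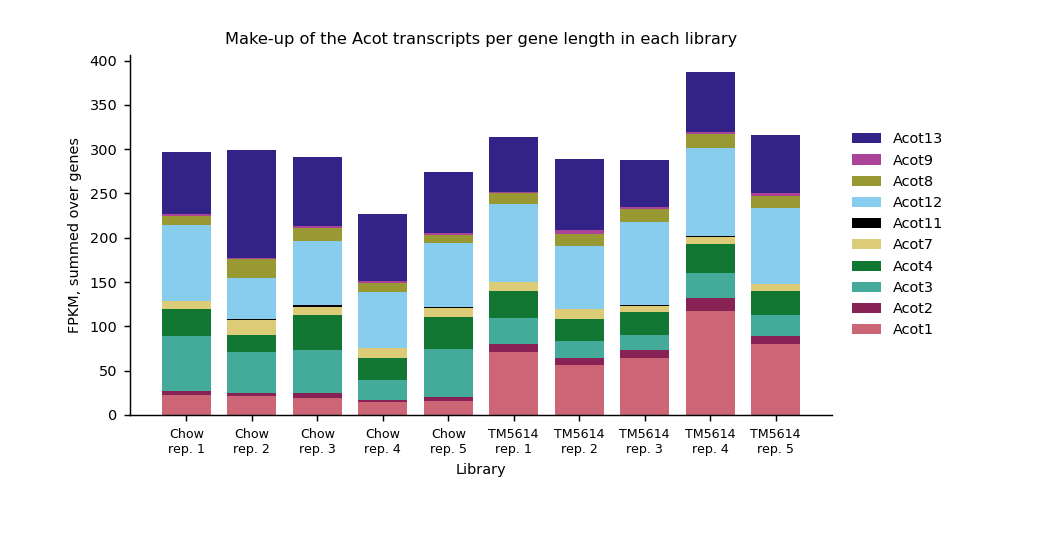
Summed FPKM of the 10 Acot genes (y axis, from 0) in each of the 10 libraries (x axis), with a colour for each gene. The bottom band, Acot1, makes up 5.82% to 7.77% of the bar in Chow libraries and 19.7% to 30.2% in TM5614 libraries.

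The genes around acyl-CoA were then counted with the same edgeR test, beside the 4.50% of all tested genes called. Among acyl-CoA synthetases, which make the substrate of the thioesterases, 15 of 20 were tested and 3 were lower, with none higher. These were Acss2, which activates acetate, at a log2 fold change of -0.89 (edgeR adjusted p = 0.000889), and the medium-chain synthetases Acsm1, at -0.57 (edgeR adjusted p = 0.0339), and Acsm5, at -0.56 (edgeR adjusted p = 0.0124). Acsm1 was not called without Chow replicate 1, 3 or 4 or without any 1 of the TM5614 libraries (edgeR adjusted p between 0.0534 and 0.0959), whereas Acss2 and Acsm5 were called with each library left out. The median of the list was -0.03, and 5 of its genes were called without Chow replicate 2. The further 2 were Acsl3 and Slc27a1, which are named after their values were seen. With all libraries Acsl3 leaned lower (log2 fold change -0.79, edgeR adjusted p = 0.0771) and Slc27a1 higher (0.74, edgeR adjusted p = 0.0765). Of 10 genes of CoA synthesis and transport, 1 was called, the vitamin transporter gene Slc5a6, which was lower with a log2 fold change of -1.06 (edgeR adjusted p = 0.0211), and the median was 0.04. Without Chow replicate 3, or without TM5614 replicate 1, 2 or 3, none of these 10 was called. No gene was called in edgeR among 7 other thioesterases and type I relatives, 3 CoA diphosphatases and 7 acyl-CoA binding proteins. An unadjusted edgeR p under 0.05 was reached by 4, 1 and 2 of them, beside 20.4% of all tested genes. The called counts by DESeq2 were 0, 0 and 1, and by limma-voom 0, 0 and 2.

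Genes of acyl-CoA oxidation and other PPAR-alpha targets were the last list. Of 26 tested, 10 were higher and none lower, 11 had groups that did not overlap, and the median log2 fold change was 0.51. Over all tested genes 1.73% were called higher and 2.77% lower, 8.93% had groups that did not overlap, and the median was 0.013. The 6 with the largest changes were Pdk4, a kinase that restrains pyruvate oxidation (log2 fold change 3.56), Ehhadh, the peroxisomal bifunctional enzyme (2.31), the fatty acid omega-hydroxylases Cyp4a10 (1.40) and Cyp4a14 (1.25), the lipid droplet coat gene Plin2 (1.07) and the peroxisomal carnitine octanoyltransferase gene Crot (1.06). Their edgeR adjusted p were between 0.000889 and 0.0209. Pdk4 was at 144 CPM in TM5614 replicate 2 and at 12.6 to 40.3 CPM in the other TM5614 libraries. Without TM5614 replicate 2 the log2 fold change of Pdk4 was 2.51 (edgeR adjusted p = 0.00611). Crot was not called without Chow replicate 4 or TM5614 replicate 3 or 4 (edgeR adjusted p between 0.0515 and 0.0652), and the other 5 were called with each library left out. The count of 10 fell to 5 without TM5614 replicate 3 and to 5 without TM5614 replicate 4, and it was 20 without Chow replicate 2 and TM5614 replicate 2 together. These genes were picked with earlier results of the same livers known, so their direction is not independent evidence for that of Acot1.

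Clock genes differed between the groups in the same libraries. Of 14 tested core clock and output genes, 2 were higher, Arntl (log2 fold change 2.76) and Clock (0.98). A further 6 were lower, with the largest changes in Per3 (-2.27), Ciart (-2.08) and Dbp (-1.99). Among all tested genes 4.50% were called, 1.73% higher and 2.77% lower. The hour of collection is not given in the sources used here, and the part of clock phase in the Acot differences was not tested. Summed adipocyte markers were 48.8 to 128 CPM in Chow and 116 to 192 CPM in TM5614. Most of the sum was Elovl3, a fatty acid elongase gene, at a mean of 63.2 CPM in Chow and 110.2 CPM in TM5614, which was not called (log2 fold change 0.80, edgeR adjusted p = 0.156) but was without Chow replicate 2 (1.12, edgeR adjusted p = 0.00796). Of these 9 genes, 3 were tested and 1 was called, the lipid droplet gene Plin4 with a log2 fold change of 0.99 (edgeR adjusted p = 0.0293, and between 0.0536 and 0.0728 without Chow replicate 1 or 4 or TM5614 replicate 1, 2, 4 or 5), whereas the adipokine gene Adipoq averaged 0.611 CPM in Chow and 1.80 CPM in TM5614 and was not tested. The part of adipocyte RNA in the Acot differences was not tested. Without TM5614 replicate 2 the log2 fold changes were 2.13 for Acot1 and 1.39 for Acot2, both still called, and -0.96 for Acot3 (edgeR adjusted p = 0.0748).

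The genes most like each called thioesterase gene in their pattern over the 10 libraries were found by the Pearson correlation of log2 CPM among 8598 genes. The points share libraries and group, so the value after removing the group means is given as well. Closest to Acot1 were Fabp2 (r = 0.978, and 0.726 with group means removed), Tmed4 (0.968 and 0.737) and 2010003K11Rik (0.967 and 0.577). Closest to Acot2 were Bace1 (0.983 and 0.940), Cpt2 (0.967 and 0.841) and Tcp1 (0.960 and 0.808). Closest to Acot3 were Ces2g (0.961 and 0.929), Tbc1d9b (0.949 and 0.877) and Rab43 (0.940 and 0.861).

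**Figure D5:**
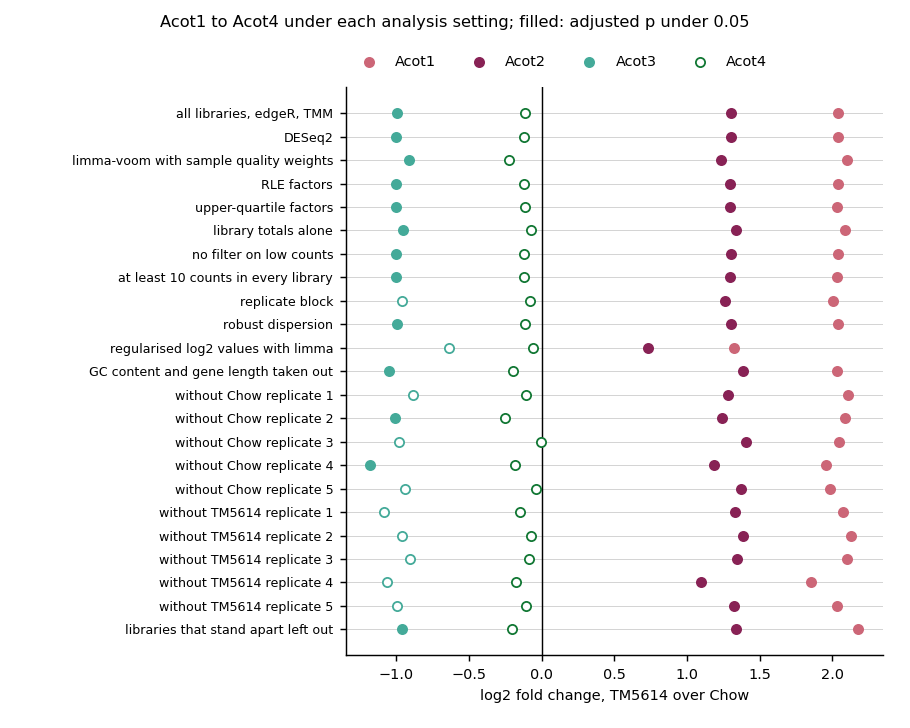
Log2 fold change of TM5614 over Chow (x axis) for Acot1, Acot2, Acot3 and Acot4 under the reported analysis and 22 other settings (y axis). Filled points have an adjusted p under 0.05. Acot1 and Acot2 stay filled throughout, at 1.33 to 2.18 and 0.73 to 1.40, Acot3 is negative throughout but open in 10 settings, and Acot4 is open throughout.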

How the data were processed

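Per the labels total RNA was taken from flash-frozen liver, whereas the study's methods describe liver pieces kept in RNAlater for RNA. The poly(A) libraries were read as single-end reads of 75 bases. Per the submitters' notes and the study's methods, STAR aligned reads to mm10 and DESeq2 was used for testing. The annotation, the strand setting and the treatment of reads with several matches are not given in the sources used here. Counts, whole numbers per gene symbol without normalization, were deposited by the authors. They also deposited FPKM values, which equalled counts divided by gene length and DESeq2's size factors, and regularised log2 values. A further deposited table, with the authors' own fold changes and p-values, was not used.

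Groups and replicate numbers came from the sample titles, and columns were matched by mouse number. Of 20 library pairs within a group, none agreed within counting error (lowest chi-square per degree of freedom 7.50). Counts were filtered with filterByExpr, scaled by TMM and tested with edgeR 4.0.16 (glmQLFTest, two-sided, no covariate) in R 4.3.3, and p-values were adjusted over 11092 genes by the Benjamini-Hochberg method with a threshold of 0.05. Standard errors follow from the log2 fold change and the F statistic. CPM are counts divided by the TMM-scaled library size, on the usual CPM scale. Log2 CPM had a prior count of 2. Gene pairs were compared with an exact permutation test in Python 3.11.15. P-values weigh the group difference against the spread between mice. Mouse numbers ran from 41 to 45 in Chow and from 46 to 50 in TM5614. Any effect that follows these blocks of numbers cannot be told apart from that of TM5614. Intervals and low counts limit Acot9 and Acot11 most.

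Alternatives were DESeq2 1.42.0, limma-voom and limma on the regularised values (limma 3.58.1), other scalings, filters and dispersions, a replicate block, a GC and length offset (splines with 5 degrees of freedom), FPKM with a pseudocount of 0.1 or a prior count of 0.5 for gene pairs, and each library left out. Leaving out Chow replicate 2 and TM5614 replicate 2 together was chosen after seeing the data.

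The members and gene lists were chosen with earlier results of these data known. All 10 members are named. Of each list the called genes are named, at most 6 a direction (3 for the clock), and for called members the 3 most correlated genes with a mean of at least 50 counts. Coordinates and transcripts are from GENCODE M21 on GRCm38, the assembly mm10 names, and promoters are from RefSeq.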

Additional observations from a re-analysis of the deposited data

Results flagged for a closer look

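Among 26 measures (10 members, 10 named genes of the neighbouring pathways and 6 gene pair ratios), 52 groups of 5 libraries were checked for a library far from the others, and 6 held one, where chance gives about 2.6. Acot2 was at 33.8 CPM in TM5614 replicate 4, with the other TM5614 libraries at 16.1 to 20.8 CPM. Acot13 was at 84.1 CPM in Chow replicate 2, with the other Chow libraries at 48.1 to 54.0 CPM. In the same library Acsm1 was at 450.2 CPM, with the others at 309 to 321 CPM. TM5614 replicate 2, the library with the muscle transcripts, held the other 3. Acsm5 was at 76.0 CPM there and at 84.8 to 88.1 CPM in the other TM5614 libraries. Pdk4 was at 144 CPM there and at 12.6 to 40.3 CPM in the others. Cyp4a10 was at 2282 CPM there and at 3442 to 3767 CPM in the others.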

How the results depend on the processing

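Acot1 and Acot2 kept their direction and call in all 22 alternatives, at log2 fold changes of 1.33 to 2.18 and 0.73 to 1.40, with the smallest values on the regularised scale, which shrinks low counts. Acot3 was lower in all 22, at -1.18 to -0.64, but lost its call with the replicate block (-0.96, edgeR adjusted p = 0.0543), on the regularised values with limma (-0.64, adjusted p = 0.053), and in 8 of the 10 fits with 1 library left out, which ranged from -1.18 to -0.89. Acsm1 lost its call with the replicate block, without a filter and in 8 fits with 1 library left out, at -0.62 to -0.51. Acot11 ranged from -1.23 to -0.81 over the libraries left out, with a call without Chow replicate 4, and was not tested when 10 counts were required in every library. The 10 members gave 2 to 4 calls. Apart from Acot3 and Acot11, no member changed its call or direction under any alternative. Library totals alone moved the median log2 fold change of all genes from 0.013 to 0.062 and no direction of a member.

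The replicate numbers were not taken to pair the mice, since the correlations of same-numbered deviations were 0.0316, 0.318, 0.124, 0.0323 and 0.25 and libraries 1, 3, 4 and 5 correlated more with another number. With the replicate block 555 genes were called against 499. Exact sign flips over the 5 pairs gave p = 0.0625 for every gene pair ratio, the smallest they allow, at unchanged differences of 0.73, 2.95, 2.09, 2.22, 1.35 and -0.87 for Acot1/Acot2, Acot1/Acot3, Acot1/Acot4, Acot2/Acot3, Acot2/Acot4 and Acot3/Acot4. With Chow replicate 2 and TM5614 replicate 2 left out, Acot3/Acot4 was -0.70 (exact permutation p = 0.0571). Other prior counts, FPKM and single libraries left out kept every gene pair past the threshold.

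Calls over all genes were 908 with DESeq2, 1386 with limma-voom, 777 with GC content and length taken out, 1031 without Chow replicate 2 and 235 without TM5614 replicate 3. Counts in the lists moved with them. Acyl-CoA synthetases (3) gave 5 by DESeq2, 6 by limma-voom, 5 with GC content and length taken out, 6 without Chow replicate 2 and TM5614 replicate 2, and 2 to 5 with 1 library left out. CoA synthesis and transport (1) gave 2 by DESeq2, 2 by limma-voom, 3 without the same libraries and 0 to 2 with 1 left out. Acyl-CoA binding (0) gave 1 by DESeq2, with library totals, with the replicate block and with GC content and length taken out, 2 by limma-voom and without the same libraries, and 0 to 2 with 1 left out. Other thioesterases (0) gave 1 with GC content and length taken out and 1 without the same libraries. Acyl-CoA oxidation (10) gave 19 by limma-voom, 20 without the same libraries and 5 to 15 with 1 left out. The causes were not tested. Depth limits Acot9 (12 to 50 counts) and Acot11 (7 to 87 counts) most.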
